A study of Homo sapiens with 12 samples.

Results

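The transcripts described here encode gamma secretase subunits (PSEN2, NCSTN, APH1A, APH1B and PSENEN), the sheddases ADAM10 and ADAM17, and the amyloid precursor family members APP and APLP2. They were picked by gene symbol as parts of this pathway and are 9 of the 60649 genes in the count table. All 9 passed the filter on low counts, which left 21114 genes for testing. RNA was sequenced from SK-LMS-1 cells and SK-UT-1B cells, each labelled as a uterine leiomyosarcoma cell line of wild-type genotype, after 72 h of exposure. SK-UT-1B cells received the DMSO vehicle (libraries 4-1 and 4-2) or a 3-drug combination, gemcitabine plus docetaxel plus MK-0752 (libraries 3-1 and 3-3). SK-LMS-1 cells received DMSO in a first set (libraries 2-1 and 2-3) or a second set (libraries 4-1 and 4-2), MK-0752 alone (libraries 2-2 and 2-3), or the same combination (libraries 4-1 and 4-2). MK-0752 is a gamma secretase inhibitor, gemcitabine is a nucleoside analog and docetaxel stabilizes microtubules. Drugs were used at the IC30, a concentration at which most cells stay viable, and the MK-0752 concentration was lower in the combination than alone, so the 2 treatments of SK-LMS-1 differed in dose as well as in drugs. Treatments were selected for sequencing because HES1, a Notch target, had fallen by qPCR.

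Gamma secretase is a membrane-embedded protease that cuts the stubs left when a sheddase has removed the outer part of a membrane protein. Presenilin carries the catalytic site, nicastrin admits the substrate, and the APH1 and PEN-2 subunits are needed for assembly and activation of the complex. Its substrates include the Notch receptors, whose released fragment drives target genes, and the amyloid precursor protein, and MK-0752 blocks this cut at the protein rather than at the transcript.

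Libraries held 25250057 to 40709885 gene counts. Libraries of a group were uneven for many genes: between 54 and 845 genes per group were at 0 in one library and at 50 or more counts in the other. SK-LMS-1 had 8 of 10 smooth muscle markers at 1 CPM or more in a library (counts scaled to the TMM-adjusted library total), and SK-UT-1B had 6 of 10. The mature smooth muscle gene MYH11 stayed at or below 0.150 CPM in both lines. Summed over the 10 markers, SK-LMS-1 libraries held 1056 to 1362 CPM and SK-UT-1B libraries 88.1 to 127 CPM. ACTA2, CNN1, TAGLN, SMTN, CALD1, ACTG2, LMOD1 and MYLK were higher in SK-LMS-1. For MYLK the ranges were 452 to 789 CPM against 1.09 to 3.66 CPM. DES went the other way, at 0 in all 8 SK-LMS-1 libraries and at 1.37 to 9.76 CPM in SK-UT-1B. The keratins KRT8 and KRT18 ranged from 64.3 to 144 CPM in SK-LMS-1, against at most 1.14 CPM in SK-UT-1B. KRT19 ranged from 5.86 to 15.1 CPM in SK-LMS-1 and reached at most 0.738 CPM in SK-UT-1B. The other epithelial markers were near the floor in both lines, with EPCAM at most 1.04 CPM and CDH1 at most 0.0796 CPM. The part of these marker differences in the values below was not tested. In bulk RNA, fewer expressing cells and less RNA per cell cannot be told apart.

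Among the 9 transcripts, the amyloid precursor family members APLP2 and APP differed most between the lines. After DMSO, 3 of the 9 transcripts (APLP2, APP and ADAM17) were higher in SK-LMS-1 and 1 (APH1A) was lower, by an adjusted p under 0.05 (edgeR, quasi-likelihood test, with the Benjamini-Hochberg procedure over all genes tested). Of all genes, 21.5% were higher and 19.5% lower by the same rule, so the shares among these 9 were near the background. After the combination, APLP2 and APP were again higher and APH1A was again lower, against 19.3% higher and 13.6% lower among all genes. The combination libraries carry set number 4 in SK-LMS-1 and 3 in SK-UT-1B, so line and set cannot be told apart in that comparison.

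No treatment changed any of the 9 transcripts past this threshold. Among all genes, 0.715% were called after the combination in SK-UT-1B, 0.365% after MK-0752 in SK-LMS-1 and 0.0237% after the combination in SK-LMS-1. DESeq2 likewise called none of the 9 in any of the 3 comparisons. At an unadjusted p under 0.05, edgeR marked ADAM10 after the combination in SK-LMS-1 and no other of these transcripts, beside 10.5%, 6.41% and 4.33% of all genes in the 3 comparisons. The median log2 fold change of the 9 was 0.12 in SK-UT-1B after the combination and 0.16 in SK-LMS-1 after MK-0752, where the median of all genes tested was 0.00. For the combination in SK-LMS-1 it was -0.01, against 0.03 for all genes. Of the 9, 8 were above 0 in SK-UT-1B after the combination, as were 10358 of all 21114 genes. In SK-LMS-1, 9 were above 0 after MK-0752 (9904 of all genes) and 3 after the combination (11177 of all genes). The SK-UT-1B treatment libraries carry another set number (3) than their DMSO libraries (4), so that comparison crosses sets. The test of whether the combination acted differently in the lines also called 0 of the 9 (0.232% of all genes), with no unadjusted p under 0.05 (7.67% of all genes). The test of MK-0752 alone against the combination in SK-LMS-1, each relative to its own DMSO set, called 0 of the 9 (0.0379% of all genes), again with no unadjusted p under 0.05 (5.18% of all genes), and the doses of MK-0752 differed.

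**Figure D1:**
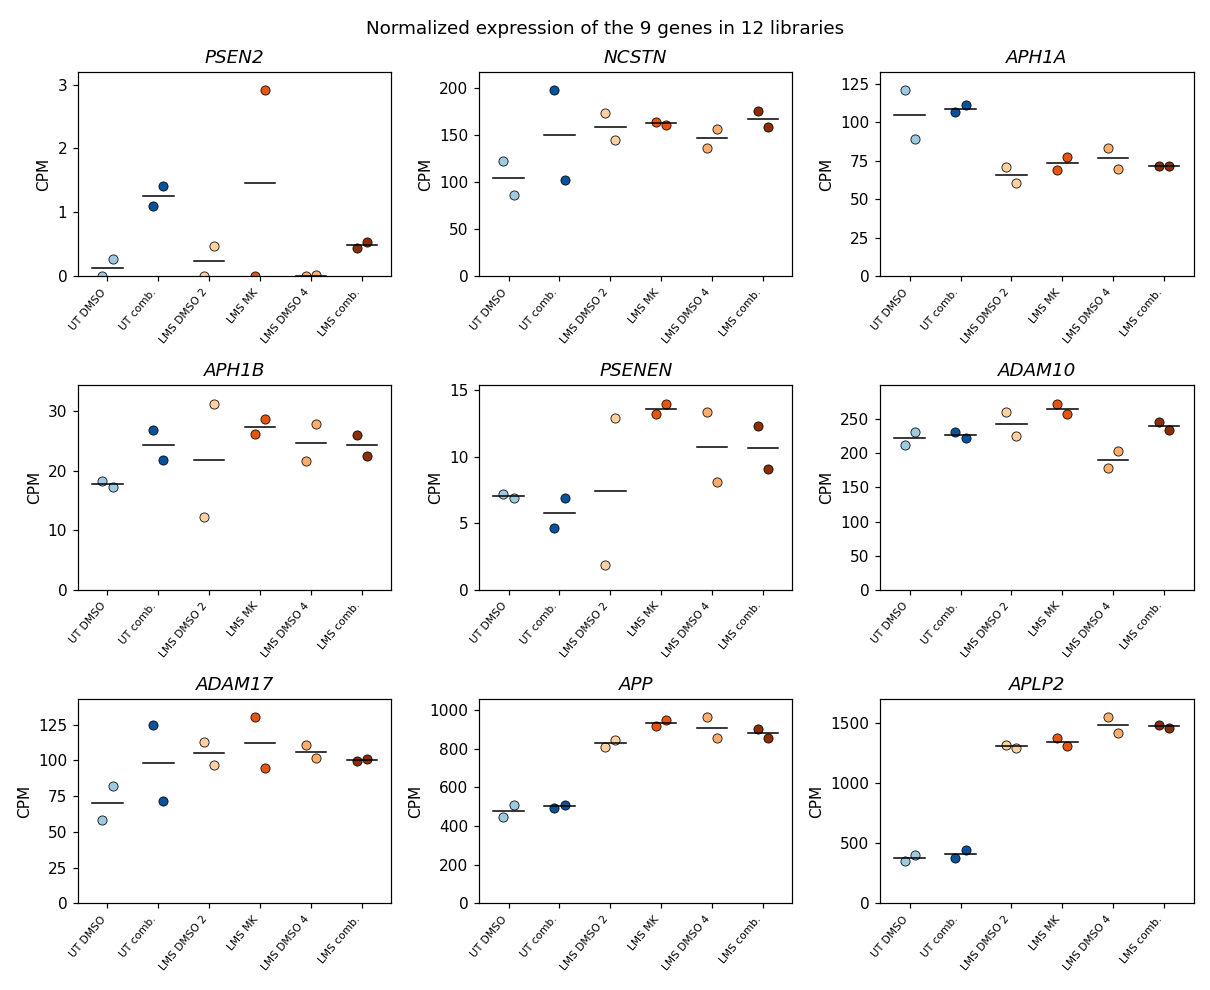
Each panel shows 1 transcript, with CPM (counts scaled to the TMM-adjusted library total) on a linear axis from 0 and the 6 groups on the x axis (UT, SK-UT-1B; LMS, SK-LMS-1; comb., combination; MK, MK-0752; DMSO 2 and DMSO 4, the first and second vehicle sets). Points are libraries and lines are means of 2 libraries. APLP2 and APP (higher in SK-LMS-1) and APH1A (higher in SK-UT-1B) separate the cell lines in every library, and PSEN2 stays below 3 CPM. The share of all genes that separate the cell lines in this way was not counted.

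APP encodes the amyloid precursor protein, a type I membrane protein that ADAM10 can shed and gamma secretase then cuts. It lies at chr21:25880535-26171128 on the minus strand of hg38. In SK-UT-1B, APP measured 446 and 507 CPM after DMSO and 495 and 508 CPM after the combination. In SK-LMS-1 it measured 811, 845, 962 and 855 CPM after DMSO, 919 and 950 CPM with MK-0752, and 902 and 857 CPM after the combination. Every SK-LMS-1 library was above every SK-UT-1B library. The difference between lines was 0.86 ± 0.12 (log2, SE; edgeR adjusted p = 4.42e-06) after DMSO and 0.81 ± 0.13 (edgeR adjusted p = 4.88e-05) after the combination. The 95% intervals of the treatment effects, as log2 fold changes, were -0.20 to 0.34 in SK-UT-1B, -0.09 to 0.44 for MK-0752 and -0.32 to 0.22 for the combination in SK-LMS-1.

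APLP2 encodes an amyloid precursor-like protein that is processed by the same kinds of protease. It lies at chr11:130068147-130144811 on the plus strand of hg38. APLP2 was measured at 358 and 405 CPM in SK-UT-1B after DMSO and at 382 and 445 CPM after the combination. In SK-LMS-1 it reached 1324, 1298, 1550 and 1417 CPM after DMSO, 1376 and 1311 CPM with MK-0752, and 1489 and 1463 CPM after the combination. The lines did not overlap, and the difference was 1.87 ± 0.12 (log2, SE; edgeR adjusted p = 1.58e-10) after DMSO and 1.84 ± 0.13 (edgeR adjusted p = 9.40e-10) after the combination. This was the only one of the 9 transcripts whose line difference was called with an absolute log2 fold change of at least 1, as 31.1% of all genes were after DMSO and 25.4% after the combination. The 95% intervals of its treatment effects were -0.15 to 0.39 in SK-UT-1B, -0.23 to 0.30 for MK-0752 and -0.28 to 0.26 for the combination in SK-LMS-1.

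The ratio of the pair, which restates the unequal line differences of APLP2 and APP, was taken within each library per kb of the canonical transcript (3697 bases for APLP2 and 3583 bases for APP). The ratio of APLP2 to APP ran from 0.748 to 0.849 in the 4 SK-UT-1B libraries and from 1.34 to 1.65 in the 8 SK-LMS-1 libraries. APP was thus the higher of the pair in every SK-UT-1B library and APLP2 in every SK-LMS-1 library. Over the DMSO libraries the mean log2 ratio was 0.64 in SK-LMS-1 and -0.37 in SK-UT-1B, a difference of 1.01, and that of NCSTN to APH1A was 0.40 and -0.72, a difference of 1.12. No test is given, because 4 against 2 libraries cannot reach an exact permutation p below 0.133. With the union of all exons as the length, the ranges were 0.683 to 0.775 and 1.22 to 1.51.

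**Figure D2:**
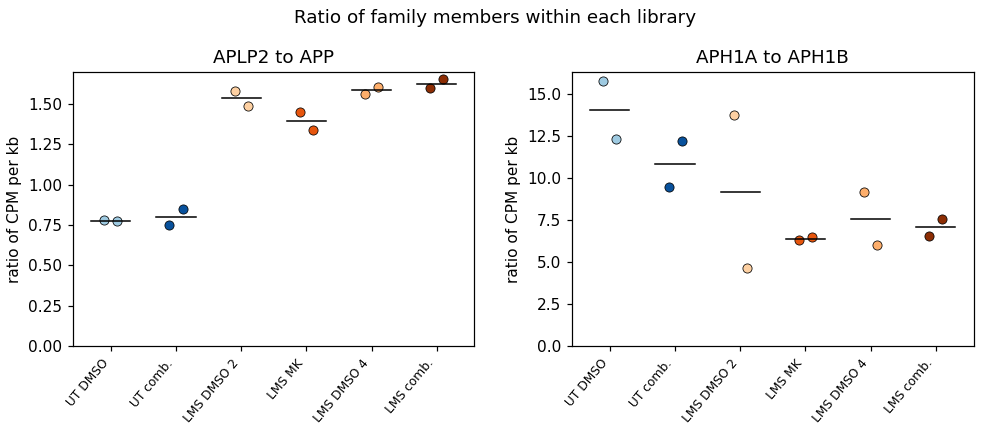
Ratio of CPM per kb of canonical transcript (y axes, linear from 0) for APLP2 to APP and for APH1A to APH1B in each library (points) and as the mean of 2 libraries (lines), by group (UT, SK-UT-1B; LMS, SK-LMS-1; comb., combination; MK, MK-0752). The APLP2 to APP ratio separates the lines in every library, whereas the APH1A to APH1B ratio, 9.48 to 15.8 in SK-UT-1B and 4.62 to 13.8 in SK-LMS-1, does not.

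The sequences upstream of these paired genes are shown because their transcripts gave the clearest line difference. Each is the stretch of the 250 bases before the canonical transcript start (GENCODE v44, hg38) that lies outside annotated exons of the gene, read 5′ to 3′ on the gene's strand, at chr21:26170788-26170984 (minus strand, 197 bases) for APP and chr11:130069644-130069836 (plus strand, 193 bases) for APLP2. Capitals mark the GC box letters GGGCGG or, for the other strand, CCGCCC.
APP: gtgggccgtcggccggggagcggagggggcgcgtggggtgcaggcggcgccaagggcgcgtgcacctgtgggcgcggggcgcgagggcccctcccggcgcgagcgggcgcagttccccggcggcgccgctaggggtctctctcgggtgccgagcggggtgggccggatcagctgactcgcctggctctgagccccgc
APLP2: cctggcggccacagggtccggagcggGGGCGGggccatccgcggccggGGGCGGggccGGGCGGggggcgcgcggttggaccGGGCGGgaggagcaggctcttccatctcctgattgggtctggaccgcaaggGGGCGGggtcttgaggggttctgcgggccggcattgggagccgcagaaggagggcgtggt
The APP stretch held 0 of these matches and the APLP2 stretch held 5. Over the whole 250 bases the numbers were 0 and 6, with 78.8% and 72.0% G and C. Of 20032 windows of this length before protein-coding genes, 59.0% held a match and 12.8% held 4 or more, and the median G and C content was 63.2%. The numbers of matches for the other members were 7 for APH1B, 3 for ADAM17, 2 for PSEN2, 1 each for APH1A and ADAM10, and 0 for NCSTN and PSENEN. Matches are letters in the reference genome and were not measured in these cells.

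ADAM10 encodes the main alpha-secretase, which sheds APP and makes the ligand-dependent first cut in Notch receptors. It lies at chr15:58588809-58749791 on the minus strand. In SK-UT-1B, ADAM10 stood at 212 and 231 CPM after DMSO and at 231 and 222 CPM after the combination. In SK-LMS-1 it stood at 261 and 225 CPM in the first DMSO set, 178 and 202 CPM in the second, 272 and 258 CPM with MK-0752, and 246 and 234 CPM after the combination. The combination libraries were above the second DMSO set without overlap, and that set was itself below the first. The fitted difference from the second set was 0.34 ± 0.15 (log2, SE; unadjusted p = 0.0336 and edgeR adjusted p = 0.907). Against the first set it was -0.02 ± 0.15. The second DMSO set differed from the first by -0.35 ± 0.15 with no drug in either (unadjusted p = 0.0268, edgeR adjusted p = 0.794, with 0% of all genes called and 5.67% at an unadjusted p under 0.05). The lines differed by -0.05 after DMSO and 0.08 after the combination on the log2 scale, with 95% intervals of -0.31 to 0.22 and -0.22 to 0.39.

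ADAM17 encodes the sheddase of TNF and of many growth factor precursors. It lies at chr2:9488486-9556732 on the minus strand, and 30.1% of its canonical transcript is shared with exons on the other strand. ADAM17 levels in SK-UT-1B were 58.6 and 82.3 CPM after DMSO and 125 and 71.5 CPM after the combination. In SK-LMS-1 they were 113, 97.1, 111 and 101 CPM after DMSO, 130 and 94.96 CPM with MK-0752, and 99.98 and 101 CPM after the combination. The DMSO libraries of the lines did not overlap, while SK-UT-1B library 3-1 was above both SK-LMS-1 combination libraries. ADAM17 was higher in SK-LMS-1 by 0.58 ± 0.21 after DMSO (log2, SE; edgeR adjusted p = 0.0346), and the difference was 0.03 ± 0.24 after the combination (edgeR adjusted p = 0.960). The first of these was no longer called without SK-LMS-1 DMSO library 2-1 (0.48, edgeR adjusted p = 0.0610) or without SK-UT-1B DMSO library 4-1 (0.32, edgeR adjusted p = 0.373). The combination effect in SK-UT-1B was 0.48 ± 0.24 (edgeR adjusted p = 0.514) and depended on the library kept: 0.83 (edgeR adjusted p = 0.00291) without library 3-3 and -0.01 without library 3-1. Without library 3-3, the difference in combination effect between the lines was also called, at 0.91 (edgeR adjusted p = 0.0323), against 0.56 ± 0.34 (edgeR adjusted p = 0.731) with it.

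NCSTN encodes nicastrin, the large glycosylated subunit of gamma secretase. It lies at chr1:160343294-160358952 on the plus strand. NCSTN read 122 and 86.5 CPM in SK-UT-1B after DMSO, and 197 and 103 CPM after the combination. In SK-LMS-1 it read 173, 145, 136 and 157 CPM after DMSO, 164 and 161 CPM with MK-0752, and 176 and 159 CPM after the combination. All 4 SK-LMS-1 DMSO libraries were above both SK-UT-1B DMSO libraries, and the difference of 0.55 ± 0.22 (log2, SE) was just short of the threshold (edgeR adjusted p = 0.0587). The difference depended on the library left out. It was 0.32 without SK-UT-1B DMSO library 4-2 and 0.78 without library 4-1 of that group. Without SK-LMS-1 DMSO library 2-3, 4-1 or 4-2 it was 0.57, 0.56 or 0.45. It stayed above 0 whichever DMSO library was left out. With all DMSO libraries kept, it was called with no filter on low counts (edgeR adjusted p = 0.00510). It was also called with only the libraries of the comparison (edgeR adjusted p = 0.0168). After the combination the lines differed by 0.16 ± 0.25 (edgeR adjusted p = 0.689), or by 0.68 (edgeR adjusted p = 0.00453) without SK-UT-1B library 3-1. That library also set the combination effect in SK-UT-1B, which was 0.53 ± 0.25 (edgeR adjusted p = 0.484) with all libraries, -0.05 without library 3-1, and 0.92 (edgeR adjusted p = 9.20e-05) without library 3-3.

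APH1A and APH1B encode alternative versions of the APH1 scaffold subunit, of which each complex holds a single copy. APH1A, at chr1:150265399-150269580 on the minus strand, measured 121 and 89.3 CPM in SK-UT-1B after DMSO and 106 and 111 CPM after the combination. In SK-LMS-1 APH1A measured 70.8, 60.4, 83.3 and 69.8 CPM after DMSO, 69.1 and 77.7 CPM with MK-0752, and 71.7 and 71.4 CPM after the combination. Every SK-UT-1B library was above every SK-LMS-1 library. The difference, SK-LMS-1 minus SK-UT-1B, was -0.57 ± 0.16 (log2, SE; edgeR adjusted p = 0.00780) after DMSO and -0.61 ± 0.19 (edgeR adjusted p = 0.0185) after the combination. The first was no longer called without SK-UT-1B DMSO library 4-1 (-0.38, edgeR adjusted p = 0.266), and the second without SK-LMS-1 combination library 4-1 (-0.63, edgeR adjusted p = 0.120) or 4-2 (-0.61, edgeR adjusted p = 0.132). APH1B, at chr15:63276018-63309126 on the plus strand, measured 18.3 and 17.3 CPM in SK-UT-1B after DMSO and 26.9 and 21.8 CPM after the combination. In SK-LMS-1 APH1B measured 12.3, 31.3, 21.7 and 27.8 CPM after DMSO, 26.2 and 28.7 CPM with MK-0752, and 26.1 and 22.6 CPM after the combination. Both combination libraries of SK-UT-1B were above its DMSO libraries for APH1B, by a fitted 0.45 with a 95% interval of -0.29 to 1.19 (log2), and the lines overlapped. Per kb, APH1A was higher than APH1B in all 12 libraries.

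PSENEN encodes PEN-2, the smallest subunit, which triggers the maturation cut of presenilin. It lies at chr19:35745600-35747519 on the plus strand, and 25.4% of its canonical transcript is shared with a same-strand gene and 37.8% with exons on the other strand. PSENEN values were 7.17 and 6.90 CPM in SK-UT-1B after DMSO and 4.65 and 6.92 CPM after the combination. In SK-LMS-1 they were 1.86, 12.9, 13.4 and 8.11 CPM after DMSO, 13.2 and 13.9 CPM with MK-0752, and 12.3 and 9.07 CPM after the combination. DMSO library 2-1 held 65 counts where library 2-3 held 356. The MK-0752 effect of 0.88 (log2, 95% interval -0.43 to 2.20; edgeR adjusted p = 0.806) depended on the DMSO library kept: it was 2.84 (edgeR adjusted p = 0.0378) without library 2-3 and 0.07 without library 2-1.

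**Figure D3:**
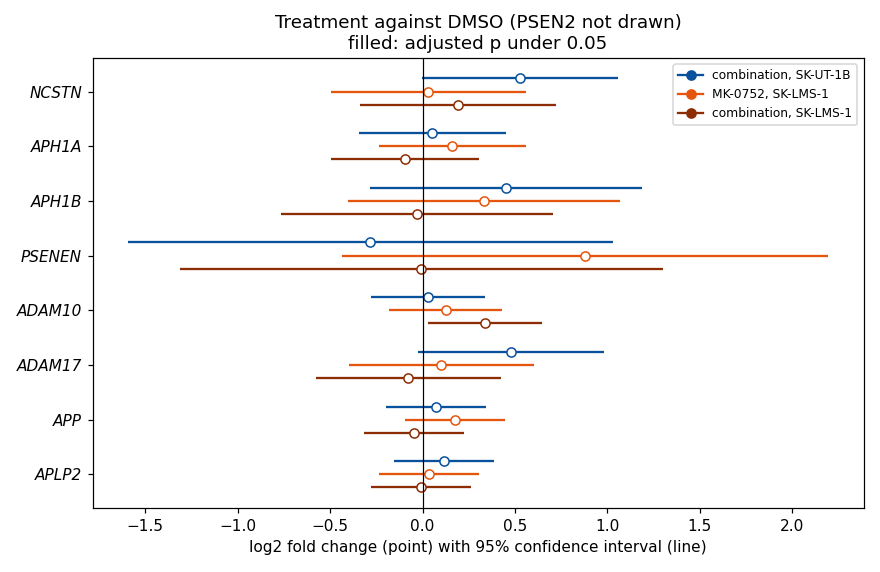
Log2 fold change of each treatment against its DMSO group (x axis; points) with 95% confidence intervals (lines) for 8 transcripts, from the edgeR fit on 12 libraries. Points would be filled at an adjusted p under 0.05 and none is; the interval for ADAM10 after the combination in SK-LMS-1 (0.03 to 0.64) is the only one that leaves out 0.

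**Figure D4:**
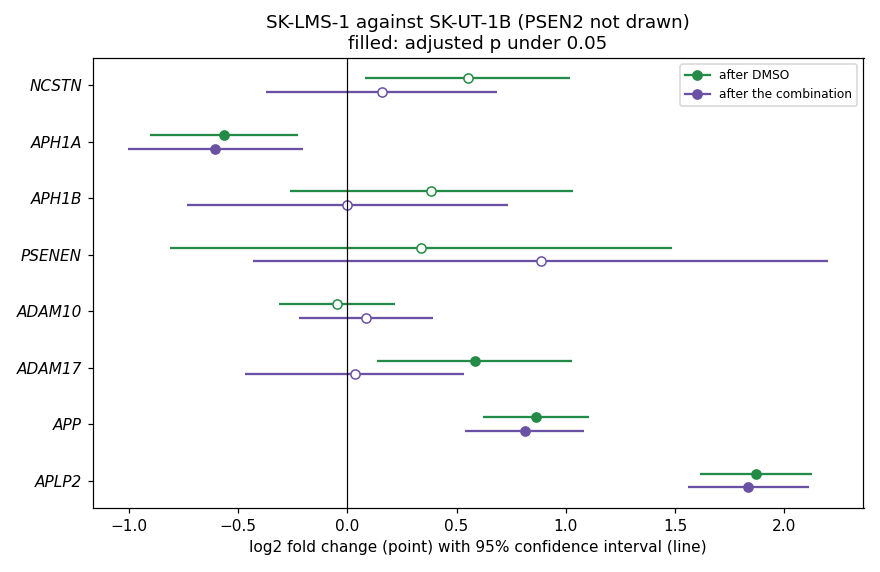
Log2 fold change of SK-LMS-1 over SK-UT-1B (x axis; points) with 95% confidence intervals (lines) after DMSO (4 against 2 libraries) and after the combination (2 against 2). Filled points have an adjusted p under 0.05; APLP2, APP and APH1A are filled in both conditions and ADAM17 after DMSO only, at 0.58 against 0.03 after the combination.

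PSEN2 encodes a presenilin, the catalytic subunit. It lies at chr1:226870184-226927726 on the plus strand. PSEN2 counts were low and uneven: 0 and 10 in SK-UT-1B after DMSO, 40 and 40 after the combination, 0, 13, 0 and 1 in SK-LMS-1 after DMSO, 0 and 107 with MK-0752, and 15 and 13 after the combination. The highest value, 2.91 CPM, and a value of 0 came from the MK-0752 pair. The combination libraries were above the SK-UT-1B DMSO libraries and above the second SK-LMS-1 DMSO set without overlap, yet the fitted effect in SK-UT-1B was 3.19 with a 95% interval of -2.85 to 9.23 (log2; edgeR adjusted p = 0.826). In SK-LMS-1 the combination libraries held 28 counts in sum against 1 in the second DMSO set, a ratio of 30.7 per unit of depth with an exact 95% interval of 5.08 to 1256 that covers counting error only. The fitted log2 fold change, which takes in the spread between libraries, was 4.78 with a 95% interval of -1.88 to 11.44 (edgeR adjusted p = 0.907). Against the first DMSO set, which held 13 counts, the fitted log2 fold change was 1.06 (edgeR adjusted p = 1.00).

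Another annotated gene lies over PSEN2, which bears on how its counts can be read. In GENCODE v44, 98.5% of the 2249 bases of the canonical PSEN2 transcript lie in same-strand exons of a readthrough gene (ENSG00000288674) that starts at the same base and ends at position 226987545. STAR, which counted the reads, assigns a read that overlaps exons of more than 1 gene to none of them. The readthrough gene was listed in the count table and was at 0 in all 12 libraries. Among protein-coding genes, the 243 with 90% or more of the canonical transcript so shared had a median of 43 counts over the 12 libraries together, against 4281 for the 17243 genes with under 1% shared. Of the 610 genes annotated as readthrough, 73.6% were at 0 in every library. Reads that fell in both genes were not analysed here and the part of this overlap in the PSEN2 counts was not tested, so a low PSEN2 count is not reported as low expression.

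**Figure D5:**
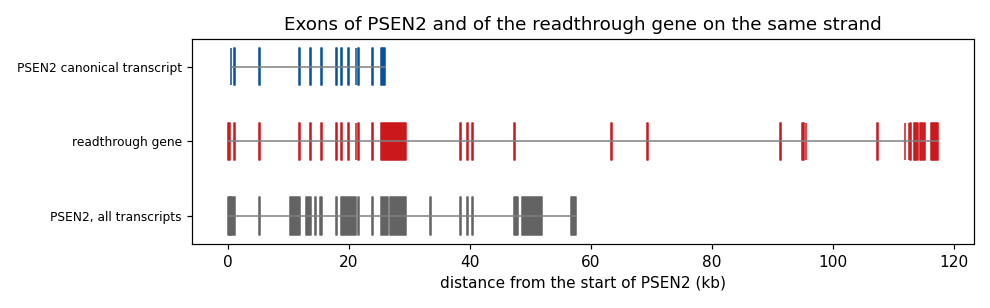
Exons of the canonical PSEN2 transcript (top), of the readthrough gene on the same strand (middle) and of all PSEN2 transcripts (bottom), against the distance from the start of PSEN2 in kb. Boxes are exons, widened where needed to be visible, and lines span each model; 98.5% of the canonical PSEN2 bases lie under readthrough exons.

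Per kb of canonical transcript, APLP2 stood highest in SK-LMS-1, at 351 to 419 CPM per kb over the 8 libraries, followed by APP at 226 to 268. NCSTN (48.3 to 62.4) and APH1A (34.9 to 48.1) came next, then ADAM17 (21.6 to 29.6) and ADAM10 (15.9 to 24.4), which overlapped. PSENEN (1.66 to 12.4) and APH1B (2.98 to 7.55) overlapped at the low end. In SK-UT-1B the order began with APP at 124 to 142 CPM per kb and APLP2 at 96.7 to 120, over 4 libraries. APH1A (51.6 to 69.8) and NCSTN (30.7 to 69.9) overlapped, as did ADAM10 (19.0 to 20.7) with ADAM17 (13.3 to 28.5) and PSENEN (4.13 to 6.38) with APH1B (4.19 to 6.49). PSENEN was divided by its full canonical length, of which 25.4% is shared with a same-strand gene and 37.8% with other-strand exons. The part of this sharing in its low place was not tested. PSEN2 is not placed in the order, since 98.5% of its canonical transcript is shared with the readthrough gene. The order of some neighbours rests on the length used. With the union of exons the ratio of ADAM10 to ADAM17 was 1.60 to 3.62 over the 12 libraries, in place of 0.632 to 1.43, and that of NCSTN to APH1A was 0.279 to 0.743 in place of 0.565 to 1.51.

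The transcripts around this pathway were taken from 7 gene lists, and only LRP1 and HES1 passed the test in a treatment comparison. LRP1, an endocytic receptor that binds APP and is itself cut by gamma secretase, rose in SK-UT-1B after the combination, from 146 and 130 CPM to 249 and 188 CPM (0.66 ± 0.15 on the log2 scale, edgeR adjusted p = 0.0454). The call was lost without DMSO library 4-2 (0.58, edgeR adjusted p = 0.104) or combination library 3-1 (0.41, edgeR adjusted p = 0.221), and the adjusted p ran from 0.00177 to 0.604 over 6 other settings. HES1, the Notch target on which the treatments had been chosen, fell in SK-LMS-1 after MK-0752 from 21.5 and 25.5 CPM to 3.14 and 3.80 CPM (-2.76 ± 0.51, edgeR adjusted p = 0.0153). After the combination HES1 fell from 19.2 and 34.8 CPM to 3.82 and 1.35 CPM (-3.37 ± 0.52, edgeR adjusted p = 0.0227, with 1.52e-07 to 0.478 over 9 other settings). In SK-UT-1B HES1 read 8.38 and 7.21 CPM after DMSO and 2.51 and 2.27 CPM after the combination (-1.70 ± 0.49, edgeR adjusted p = 0.141, and 0.0260 by DESeq2). HEY1 and NRARP, further Notch targets, did not pass in any of the 3 comparisons, with log2 fold changes from -1.83 to -0.49. HES1 thus fell in SK-LMS-1 in the same libraries in which none of the 9 transcripts passed the test, and since HES1 had served to choose the treatments its fall is not independent evidence.

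Between the lines, many genes of the other lists differed, beside 21.5% of all genes higher and 19.5% lower in DMSO-treated SK-LMS-1. The lists were written with earlier results of these data known, so their shares and medians are given as a description. Levels below are means of 4 SK-LMS-1 against 2 SK-UT-1B libraries after DMSO, or 2 against 2 after the combination, and each gene named as higher or lower was called, with edgeR adjusted p of at most 0.0461 and 0.0229. Of 27 tested substrates of gamma secretase, SK-LMS-1 had 17 higher and 3 lower under DMSO, with a median log2 difference of 1.60 against 0.00 for all genes. The higher ones included MET, a growth factor receptor (1439 against 1.09 CPM), the hyaluronan receptor CD44 (2564 against 18.1 CPM), the growth factor NRG1 (176 against 0.760 CPM) and the phosphatase PTPRK (333 against 0.981 CPM). In contrast, LRP6 read 37.9 against 127 CPM and DSG2 28.5 against 110 CPM, both named after their values were seen. Of 10 other sheddases, 5 were higher and 1 lower (median 1.62), among them ADAM9 at 747 against 138 CPM, the beta-secretase BACE1 at 193 against 61.3 CPM, MMP14 at 720 against 237 CPM and ADAM12 at 44.7 against 0.411 CPM. Of 13 regulators of ADAM10 and ADAM17, 7 were higher and 1 lower (median 1.97), again beside 21.5% and 19.5% of all genes.

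ADAM10 itself did not pass the test between the lines. Of 6 tetraspanins that escort it 2 did after DMSO, both higher in SK-LMS-1, beside 21.5% of all genes higher and 19.5% lower. TSPAN5 was at 145 CPM in SK-LMS-1 and 7.31 CPM in SK-UT-1B after DMSO (4.31 ± 0.20 on the log2 scale, edgeR adjusted p = 6.90e-13), and TSPAN15 was at 11.1 and 2.03 CPM (2.44 ± 0.81, edgeR adjusted p = 0.0271). The TSPAN15 difference was 1.58 (edgeR adjusted p = 0.0726) without SK-UT-1B DMSO library 4-2 and 4.73 without library 4-1, libraries that read 0.398 and 3.67 CPM. After the combination it was at 8.94 and 1.79 CPM (edgeR adjusted p = 0.0567). TSPAN14 (44.7 and 46.3 CPM), TSPAN17 (41.1 and 45.6 CPM), TSPAN33 (2.40 and 5.44 CPM) and TSPAN10 (4.54 and 1.12 CPM), named after their values were seen, did not pass after DMSO. For ADAM17, the trafficking factor RHBDF1 was at 24.6 and 6.13 CPM, and FURIN, which removes the inhibitory prodomain of these enzymes, was at 120 and 30.0 CPM. After the combination the called regulators with the greatest differences were TSPAN5, FURIN, the inhibitor TIMP3 (57.2 against 14.6 CPM) and, in the opposite direction, FRMD8, which stabilizes the rhomboid partners of ADAM17 (13.7 against 55.1 CPM). Under DMSO, TIMP3 read 45.6 against 11.7 CPM and FRMD8 15.6 against 43.3 CPM.

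Of 5 genes for assembly and traffic of gamma secretase, SK-LMS-1 had 4 higher under DMSO and 0 lower (median 1.07), against 21.5% and 19.5% of all genes. GSAP, which encodes a gamma secretase activating protein, was at 44.1 CPM in SK-LMS-1 and at 0 in both SK-UT-1B DMSO libraries, at least 481-fold higher against a floor of 3 counts per library. RER1, a retrieval receptor for unassembled subunits, was at 127 against 59.7 CPM, IFITM3 at 552 against 245 CPM and BSG at 650 against 456 CPM, the last not called without SK-UT-1B DMSO library 4-2 (edgeR adjusted p = 0.0511). After the combination TMED10, a trafficking receptor, was at 494 against 358 CPM, a call lost without SK-LMS-1 combination library 4-1 or 4-2 or SK-UT-1B combination library 3-1 (edgeR adjusted p of 0.216, 0.0999 and 0.157) and with only the libraries of the comparison (0.0520). Of 14 relatives, adaptors and sorting receptors of APP, 6 were higher and 4 lower after DMSO (median 0.34), beside 21.5% and 19.5% of all genes. APLP1, the remaining family member, read 19.5 CPM in SK-LMS-1 and 32.3 CPM in SK-UT-1B (-0.74 ± 0.29, edgeR adjusted p = 0.0518) and is named after its values were seen. LRP1 was at 910 against 138 CPM and the adaptor APBA1 at 12.7 against 1.73 CPM, whereas APBA2 was at 5.51 against 36.0 CPM and the sorting receptor SORL1 at 1.84 against 10.3 CPM. SORT1, another sorting receptor, was at 269 against 45.4 CPM after the combination and read 272 against 57.9 CPM after DMSO. Of 4 tested presenilin-related proteases, HM13 was higher (265 against 182 CPM) and SPPL2A lower (67.8 against 102 CPM) in DMSO-treated SK-LMS-1, and SPPL2B was lower after the combination (10.4 against 28.8 CPM). Without SK-UT-1B DMSO library 4-2 neither HM13 (edgeR adjusted p = 0.125) nor SPPL2A (0.111) was called after DMSO, and HM13 was not called without SK-LMS-1 DMSO library 4-2 (0.0669). HM13 was at 277 against 188 CPM after the combination, a call lost without SK-LMS-1 combination library 4-1 (0.0791) or 4-2 (0.0851). Among the Notch targets HES1 was higher (25.3 against 7.80 CPM) and NRARP lower (2.08 against 8.33 CPM) in DMSO-treated SK-LMS-1. The NRARP call was lost with no filter on low counts (edgeR adjusted p = 0.0681) and when any of the DMSO libraries other than SK-LMS-1 library 4-1 was left out (0.0577 to 0.236).

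Within lines, the 9 transcripts did not vary as a block across the 12 libraries. With each line's mean removed, Pearson's r of log2(CPM + 0.5) between pairs ran from -0.38 (ADAM10 with APLP2) to 0.72 (APH1B with PSENEN), and APP and APLP2 gave 0.55. Both members of the highest pair were low in the same library, SK-LMS-1 DMSO 2-1. The genes most like each member, out of about 9866 with a mean of at least 10 CPM, were ZFAND3 for NCSTN (r = 0.94), SCAP for APH1A (0.90), METTL23 for APH1B (0.96), LYN for PSENEN (0.93), TRHDE for ADAM10 (0.97), SENP6 for ADAM17 (0.94), PBX2 for APP (0.90), TSPAN3 for APLP2 (0.90) and GARS1-DT for PSEN2 (0.89). Each is the highest of all genes compared, over 12 libraries that share lines and treatments, and is given as a description.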

How the data were processed

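RNA from 12 libraries in 6 groups of 2 was analysed. Per the study's methods, ribosomal RNA was depleted, stranded libraries were sequenced as single-end reads, and the authors trimmed reads with Trim Galore 0.3.7, aligned them to hg38 with STAR 2.7.9a and removed remaining ribosomal reads. The authors deposited raw gene counts from STAR, unnormalized. The annotation release and the strand setting are not given in the sources used here, and they decide how overlapping genes were counted. Of 60649 gene identifiers, 60507 matched GENCODE v44 when versions were ignored. The labels do not say that libraries of a group were separate cultures, so p-values measure only the spread between these libraries.

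Counts were fitted with edgeR 4.0.16 (R 4.3.3) on all 12 libraries, with TMM scaling, filterByExpr, 1 mean per group and the quasi-likelihood F test. Benjamini-Hochberg adjustment ran over 21114 genes, and an adjusted p under 0.05 was called. In place of edgeR, the study used DESeq2 1.42.0, which served here as an alternative. Each SK-LMS-1 treatment was compared with the DMSO set of the same first number in the titles, since the sources do not say which set was its control. DMSO columns without a line prefix were taken as SK-LMS-1, because each SK-UT-1B title has its own prefixed column. Levels are CPM on TMM-scaled totals, per kb of the Ensembl canonical transcript where genes are compared. The script was tested on simulated data for the combination in SK-UT-1B, with 200 genes set to differ. All other genes had the same mean in both lines and all groups, unlike the real data. The genes set to differ were picked above a minimum level that PSEN2 does not reach, so the recovery does not apply to PSEN2. There edgeR recovered 31% of the 2-fold and 84% of the 4-fold differences, and DESeq2 recovered 36% and 85%. Genes not set to differ made up 10.9% of edgeR calls and 30.5% of DESeq2 calls. In the combination comparison of SK-LMS-1, where no gene was set to differ, edgeR called 4 genes and DESeq2 called 22.

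The members and gene lists were chosen with earlier results of these data known. Named in the text are the 9 members, list genes with an adjusted p under 0.05 in a treatment comparison, up to 4 called genes per list for the line comparisons (largest absolute log2 fold change, mean of at least 5 CPM in the higher line), HES1, HEY1 and NRARP, and 1 most similar gene per member. Alternatives were other normalization, filters, control sets, fits on fewer libraries, a replicate block and leaving out each library. The replicate numbers shared by the second DMSO set and the combination in SK-LMS-1 were not used to pair libraries in the main fit.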

Additional observations from a re-analysis of the deposited data

Results flagged for a closer look

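PSEN2 in SK-LMS-1 DMSO library 2-3 measured 0.471 CPM, far from the other 3 DMSO libraries, of which the nearest was at 0.0259 CPM. The gap was 0.945 of the whole range, above Dixon's 95% limit for 4 libraries. This was the only one of 9 transcripts so marked, and chance marks about 1 in 20 groups. The value rests on 13 counts, with 0 to 1 in the other libraries, for a transcript of which 98.5% is shared with another gene.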

How the results depend on the processing

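No result changed sign while called. The number of members called moved in few settings. With an absolute log2 fold change of at least 1 required, the members called higher in SK-LMS-1 went from 3 to 1 after DMSO and from 2 to 1 after the combination, and those called lower went from 1 to 0 in both conditions, since only APLP2 is past that size. Leaving out 1 library at a time gave 0 to 2 members called higher for the combination in SK-UT-1B (NCSTN and ADAM17 without replicate 3), 0 to 1 for MK-0752 in SK-LMS-1 (PSENEN without replicate 3 of the first DMSO set) and 0 to 1 for the difference in combination effect between lines (ADAM17 without SK-UT-1B combination replicate 3). Lower calls for APH1A numbered 0 to 1 in the DMSO comparison of the lines and 0 to 1 in that after the combination. The other 200 of 210 recomputed numbers of called members were within 1.5 times the main number.

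ADAM17 after DMSO was not called when genes needed a mean of 50 counts (edgeR adjusted p = 0.0509), and NCSTN was called with no filter (0.00510) or with only the libraries of that comparison (0.0168). The cause was not tested. PSEN2 was removed by the filter of 50 counts. The replicate block for the SK-LMS-1 second set was read for the combination effect in SK-LMS-1 alone. There 0 members were called and HES1 was at -3.46 (edgeR adjusted p = 0.0532). Over 9866 genes the deviations of same-numbered libraries had r = -0.03. With a single difference between libraries per group, this cannot decide whether the numbers mark a pairing. Testing protein-coding genes alone, an alternative chosen after seeing the data, changed no call among the members and moved the edgeR adjusted p of LRP1 in SK-UT-1B to 0.0536. With 2 libraries per group, effects of the sizes inside the printed intervals cannot be told apart, and PSEN2 rests on few counts.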
